A study of Mus musculus with 14 samples.

Results

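The comparison described here is the genotype dependence of the response to tunicamycin in mouse liver. For each gene, the change from vehicle to tunicamycin in mice lacking Rbbp5 in hepatocytes (LKO) was set against the same change in wild-type mice (WT), and the difference between the changes, the interaction, was tested. All 14 libraries of the series entered, and libraries 3 and 4 of the LKO vehicle group were summed, which left 13 samples. All mice were male littermates between 5 and 7 months old with floxed Rbbp5 alleles (Rbbp5 flox/flox). WT mice lacked the Alb-Cre transgene and LKO mice, labelled RRBP5 LKO, carried it. Alb-Cre is driven by the albumin promoter, which is active in hepatocytes, so the other cells of the liver were not targeted. Tunicamycin was injected into the peritoneum at 0.05 mg/kg in 500 µl of 3% DMSO in PBS, and control mice received the same solution without it. Injections were made from 9 to 10 am and liver was taken 8 h later. WT had 3 libraries per treatment and LKO 4.

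Tunicamycin blocks the first step of N-linked glycosylation, and unfolded glycoproteins then accumulate in the endoplasmic reticulum (ER). The cell answers through the unfolded protein response, which has 3 sensors. ATF6 is cleaved to a transcription factor that induces ER chaperones, IRE1 splices the mRNA of XBP1 and so raises genes of ER-associated degradation (ERAD), and PERK slows translation and raises ATF4 and its target CHOP. RBBP5 is a core subunit of the MLL and SET1 complexes, which methylate histone H3 at lysine 4 near active promoters. In the liver, ER stress is also known to touch lipid synthesis and the acute phase response, the secretion of plasma proteins during inflammation.

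Rbbp5 itself was read at low depth, with 19 to 50 reads per sample. Its level was 4.07, 6.41 and 5.10 CPM (reads scaled to a common library size by TMM) in WT vehicle samples 1 to 3 and 5.37, 5.03 and 5.71 CPM in WT tunicamycin samples 1 to 3. It was 4.15, 1.90 and 2.79 CPM in LKO vehicle samples 1, 2 and 3 and 4 summed, and 2.80, 3.12, 3.46 and 2.06 CPM in LKO tunicamycin samples 1 to 4. The tunicamycin groups did not overlap between genotypes, whereas LKO vehicle 1 lay within the WT vehicle range. The labels do not tie the counted reads to the floxed exons, so reads from a shortened transcript cannot be told apart from intact ones. The tunicamycin effect on Rbbp5 did not differ detectably between genotypes (interaction -0.04 ± 0.36 SE on the log2 scale, 95% interval -0.80 to 0.73).

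Libraries held from 6507020 to 13519400 sense reads on genes, of which 72.5 to 75.5% fell on the ribosomal RNA gene Rn45s, so 1704480 to 3551400 reads were left for all other genes. Hepatocyte markers were high in every group, with a summed level of 25678 to 39912 CPM over 11 markers and 0 of them at 0. WT tunicamycin 3 stood apart from its group. On the first principal component, which held 29.5% of the variance, it lay at -25.2, among the WT vehicle samples (-27.8 to -22.0), while WT tunicamycin 1 and 2 lay at 12.1 and 18.1. LKO vehicle 2 also stood apart, with acute phase transcripts near the level of the tunicamycin groups. For several lists and genes, results that rest on these samples are given with and without them. The labels do not say whether replicates were separate mice, so the p-values measure the spread between these samples.

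Across the liver transcriptome, no gene passed the test of the interaction. Of 9644 genes tested, 0 (0%) had an adjusted p under 0.05 by the quasi-likelihood test of edgeR, adjusted after Benjamini and Hochberg, and the smallest adjusted p was 0.935. DESeq2 and limma voom also called 0 genes. The unadjusted p was under 0.05 for 474 genes (4.91% of those tested), near the share of 0.05 expected with no interaction in any gene. Of these, 269 (2.79%) had a negative interaction, meaning a lower effect in LKO than in WT, and 205 (2.13%) a positive one. When scaled by total counts instead, the split turned to 90 negative and 491 positive and the median interaction of all genes moved from -0.02 to 0.13, so directions below are relative to the median gene. The precision of a single gene was limited: the median SE of the interaction was 0.294 on the log2 scale (0.180 to 0.553 from the 10th to the 90th percentile), and the median 95% interval reached 0.622 to either side.

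The responses within each genotype had more calls in WT. Tunicamycin changed 35 genes in WT (0.363% of genes tested) and 3 in LKO (0.0311%) at an adjusted p under 0.05. At an unadjusted p under 0.05, 765 genes (7.93%) were higher and 661 (6.85%) lower in WT, and 562 (5.83%) were higher and 610 (6.33%) lower in LKO. These counts do not show that the responses differ, which only the interaction tests. They also rest on single samples: without WT tunicamycin 3, WT had 615 calls and LKO 67, and without WT vehicle 1 both had 0.

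The direction of the response was mostly common to both genotypes. The effects in WT and in LKO come from different samples, and over all genes their Pearson correlation was 0.493, given as a description across genes, which are not independent. Of the 765 genes higher in WT, 622 (81.3%) were also above vehicle in LKO, with a median log2 change of 0.68 in WT and 0.25 in LKO. Of the 661 lower in WT, 553 (83.7%) were also below vehicle in LKO, with medians of -0.51 and -0.23. A gene chosen in one genotype tends to be larger there by the choice itself. Chosen instead in LKO, the 562 higher genes had medians of 0.56 in LKO and 0.34 in WT, and the 610 lower genes -0.45 and -0.29, with 83.5% and 84.6% of the same sign. Over all 9644 genes, 63.8% had the same sign in both.

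Genes were sorted, at unadjusted p under 0.05, into responses shared by both genotypes with the same sign, lost (in WT but not LKO, with an interaction), gained (in LKO but not WT, with an interaction) and opposite (in both, with contrary signs). The names describe the sorting and are no test of a single gene. Lost and gained genes were sorted by an interaction that uses the same libraries, so the class counts test nothing either. Shared responses numbered 416 (4.31% of genes tested), 193 higher and 223 lower. Lost responses numbered 272 (2.82%), 162 higher and 110 lower in WT. Gained responses numbered 89 (0.923%), 42 higher and 47 lower in LKO, and 10 genes (0.104%) were opposite. In every fit that left out 1 sample, 72 of the shared, 66 of the lost and 6 of the gained genes kept their class. Msra, Fabp5 and Tsku, described further on, were among the gained genes that kept it.

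**Figure D1:**
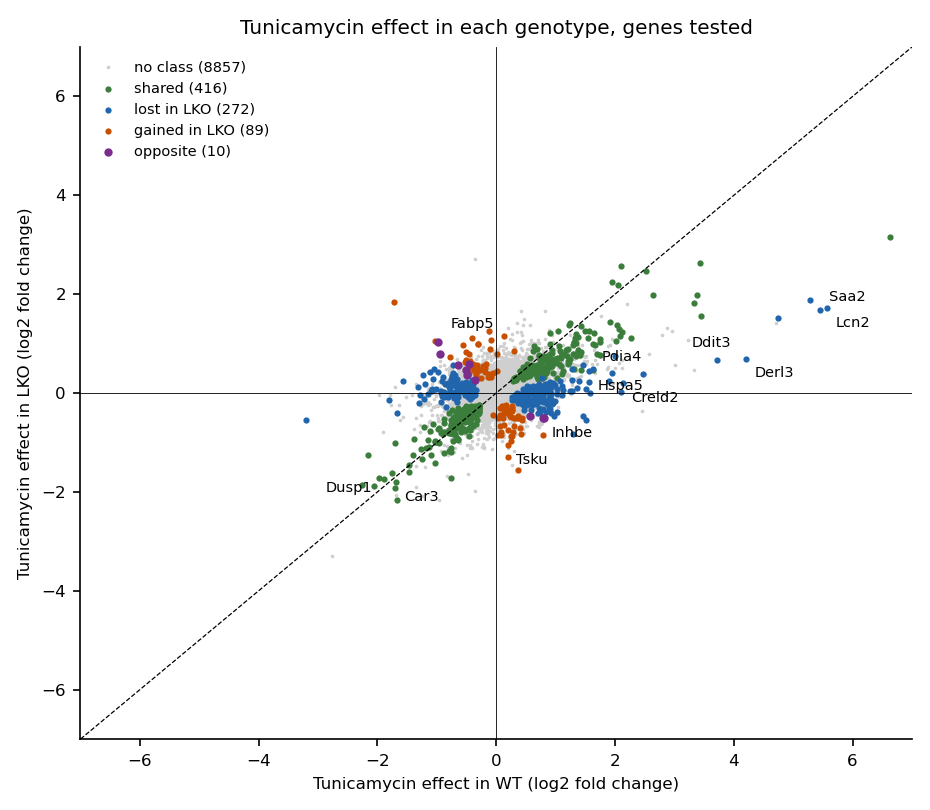
Tunicamycin effect in LKO (log2 fold change, y axis) against the effect in WT (log2 fold change, x axis), 1 point per gene tested, coloured by class; on the dashed diagonal the effects are equal. Shared genes (416) lie on both sides of the origin along the diagonal. Lost genes (272) have a median on the y axis of -0.04 where higher in WT and 0.09 where lower. Single lost genes such as Lcn2 and Saa2 lie well above 0 there.

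Most genes of ER protein folding were higher after tunicamycin in WT, and most of their interactions were negative. All 25 ER chaperones and folding enzymes of the list used here were tested, 24 had a negative interaction, and 10 (40%) had an unadjusted p under 0.05 with a negative sign, against 2.79% of all genes. The median interaction was -0.41, against -0.02 for all genes. At unadjusted p, 19 were higher in WT (median change of the list 0.74), and in LKO 6 were higher and 1 lower (median 0.26). In the list, 7 were lost (Hspa5, Hsp90b1, Hyou1, Creld2, Manf, Dnajc3 and Pdia3) and 6 shared (Pdia4, Dnajb11, Sdf2l1, Calr, Dnajc10 and Nucb2). The list was put together with earlier results of these data known, and these counts describe it without a test.

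Hspa5 encodes BiP, the main Hsp70 chaperone of the ER and the repressor of the sensors at rest. Its level was 197, 211 and 253 CPM in the WT vehicle samples and 854, 313 and 786 CPM in WT tunicamycin. In LKO it was 127, 117 and 173 CPM with vehicle and 229, 142, 181 and 207 CPM with tunicamycin. The WT groups did not overlap, WT tunicamycin 2 was the lowest of its group, and every LKO sample lay below every WT tunicamycin sample. Hspa5 rose by 1.57 ± 0.29 in WT (log2, SE, adjusted p = 0.0388 by edgeR's quasi-likelihood test), and its change in LKO was 0.45 ± 0.27. The interaction was -1.12 ± 0.39 (unadjusted p = 0.0108, 95% interval -1.94 to -0.29).

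Hsp90b1 encodes GRP94, the Hsp90 of the ER. It was read at 239, 260 and 281 CPM in WT vehicle, 751, 411 and 717 in WT tunicamycin, 209, 275 and 236 in LKO vehicle and 315, 245, 276 and 317 in LKO tunicamycin. Every WT tunicamycin sample was above every other sample, and the LKO groups overlapped. The change was 1.27 ± 0.20 in WT (adjusted p = 0.0170 by edgeR) and 0.26 ± 0.19 in LKO, an interaction of -1.01 ± 0.27 (unadjusted p = 0.00196). Pdia4, a protein disulfide isomerase, was read at 58.4, 54.8 and 69.5 CPM in WT vehicle, 230, 128 and 209 in WT tunicamycin, 51.4, 84.8 and 61.8 in LKO vehicle and 102, 71.8, 102 and 90.4 in LKO tunicamycin. It was counted as shared, with a change of 1.63 ± 0.22 in WT (adjusted p = 0.00711) and 0.47 ± 0.20 in LKO, yet the interaction was -1.16 ± 0.29 (unadjusted p = 0.00110). A shared response could thus still be smaller in LKO.

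Dnajb11, a DnaJ cochaperone of BiP, was read at 19.6, 22.3 and 23.9 CPM in WT vehicle, 49.3, 41.7 and 42.4 in WT tunicamycin, 18.6, 23.7 and 20.8 in LKO vehicle and 31.3, 23.3, 23.5 and 26.3 in LKO tunicamycin. All WT tunicamycin samples were above all others, and the interaction was -0.71 ± 0.19 (unadjusted p = 0.00159). Creld2, an ER-resident isomerase, was read at 8.98, 8.33 and 10.8 CPM in WT vehicle and 59.0, 13.3 and 49.7 in WT tunicamycin, and at 2.49, 2.41 and 7.59 in LKO vehicle and 6.66, 3.77, 2.96 and 7.06 in LKO tunicamycin. Every LKO sample lay below every WT sample, in both treatments. The interaction was -1.93 ± 0.67 (unadjusted p = 0.0110), but without LKO vehicle 3 and 4 it was -1.08 and no longer under 0.05. Hyou1, the large ER chaperone GRP170, had an interaction of -0.96 ± 0.30, and Sdf2l1, a partner of ER DnaJ proteins, -0.89 ± 0.38, the latter under 0.05 in only 6 of 13 fits that left out a sample. Hspa5, Hsp90b1, Pdia4, Dnajb11 and Hyou1 stayed under 0.05 in all 13. Fits that left out a sample, here and below, share most samples with the full fit and are no separate test.

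**Figure D2:**
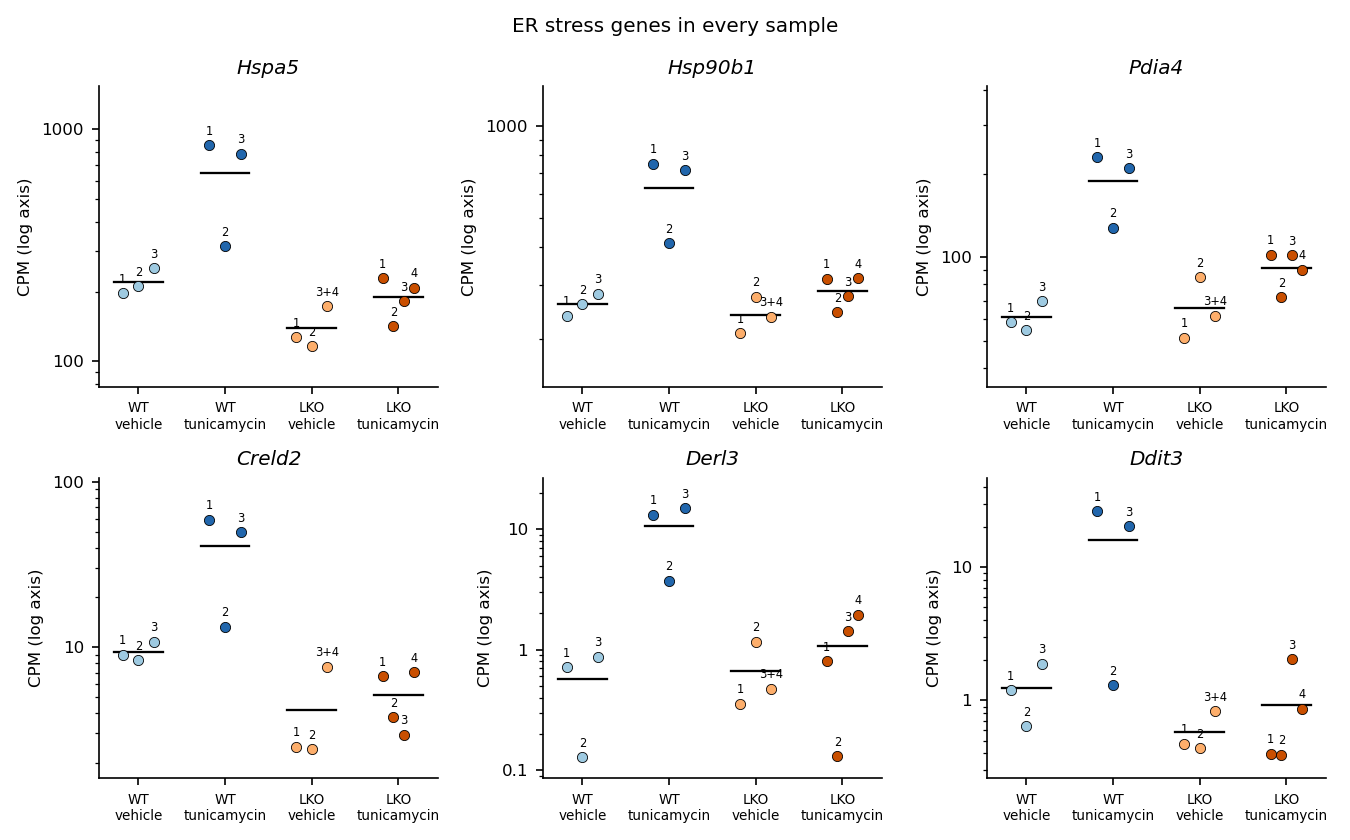
Level of 6 ER stress genes (CPM, log axis) in the 4 groups, with points numbered by replicate and a line at each group mean. For Hspa5, the WT tunicamycin samples run from 313 to 854 CPM and the LKO tunicamycin samples from 142 to 229 CPM.

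The lower shift in LKO was seen against each WT tunicamycin sample. Set against the mean of their own vehicle group, the median log2 shift of the 25 genes was 0.90, 0.47 and 0.67 in WT tunicamycin 1 to 3, and 0.45, 0.08, 0.17 and 0.23 in LKO tunicamycin 1 to 4. All 3 WT values were above all 4 LKO values, and LKO tunicamycin 1 was close to WT tunicamycin 2. Without WT tunicamycin 3 the list's median interaction was -0.42 with 8 genes under 0.05, and without that sample and LKO vehicle 2 it was -0.31 with 6. The number under 0.05 was also 6 when WT vehicle 2, WT vehicle 3, WT tunicamycin 1 or the summed LKO vehicle 3 and 4 was left out, and 6 under total count scaling. Over 29 alternatives it ran from 4, with FPKM, to 14, without LKO tunicamycin 1, and the median stayed between -0.53 and -0.24.

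The promoters of some of these genes hold the ER stress response element (ERSE), the site through which ATF6 acts together with NF-Y. The letters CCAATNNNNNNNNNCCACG were searched on both strands in RefSeq windows of GRCm38.p6 that run from 250 bases before to 50 after each start. They occurred in 39 of 32851 windows (0.119%), in 7 of the 20 chaperone genes with a window (35.0%: Calr, Canx, Creld2, Dnajc3, Hsp90b1, Hspa5 and Pdia6), and in 15 of 7415 tested genes with a window (0.202%). Of the genes sorted as lost and higher in WT, 6 of 132 held it (4.55%: Creld2, Derl3, Dnajc3, Hsp90b1, Hspa5 and Syvn1), and of those shared and higher, 1 of 149 (0.671%: Calr). A match is a description of the letters and not evidence of binding in these livers. The stretches around the elements of 4 of these 6 lost genes are shown, those whose values are given sample by sample in the text, with the element in capitals, 5′ to 3′ on the strand of the gene. They are chr2:34772005-34772063 (plus strand) for Hspa5, chr10:86705513-86705676 (minus strand) for Hsp90b1, chr15:88819500-88819558 (plus strand) for Creld2 and chr10:75893222-75893280 (plus strand) for Derl3.
Hspa5: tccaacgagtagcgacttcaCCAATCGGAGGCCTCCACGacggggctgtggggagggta
Hsp90b1: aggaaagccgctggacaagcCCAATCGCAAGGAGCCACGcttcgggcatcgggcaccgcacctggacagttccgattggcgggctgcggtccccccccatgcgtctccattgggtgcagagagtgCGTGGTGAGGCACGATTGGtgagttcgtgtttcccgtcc
Creld2: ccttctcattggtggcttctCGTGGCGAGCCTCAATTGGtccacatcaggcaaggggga
Derl3: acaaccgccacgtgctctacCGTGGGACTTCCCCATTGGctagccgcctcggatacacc
The element begins 65 bases before the start in Hspa5, 212 and 107 bases before it in Hsp90b1, 126 in Creld2 and 156 in Derl3. In Creld2, Derl3 and the nearer element of Hsp90b1 it lies on the opposite strand, so the capitals read as its reverse complement. Calr, which also holds the element, was read at 201, 209 and 218 CPM in WT vehicle, 385, 328 and 343 in WT tunicamycin, 159, 237 and 202 in LKO vehicle and 328, 234, 233 and 248 in LKO tunicamycin. It encodes calreticulin, a lectin chaperone, and its interaction of -0.36 ± 0.23 was also negative but did not pass the unadjusted threshold. Without LKO tunicamycin 1 it was -0.49 and under 0.05, the only 1 of 13 such fits. A second form of the element, ERSE-II, searched in the same way, was found in 12 windows (0.0365%), among them those of Dnajb11 and Herpud1.

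ERAD genes and other XBP1 targets had a median interaction nearer to 0. Of 26 symbols listed, 22 occurred among the genes counted, and all 22 were tested. Of these, 19 had a negative interaction and 4 (18.2%) were under 0.05 at unadjusted p, all 4 of them lost: Derl3, Xbp1, Sel1l and Syvn1. At unadjusted p, 10 were higher in WT and 0 in LKO. The number under 0.05 ran from 1, with FPKM, to 8, without WT tunicamycin 2, over the 29 alternatives. The median interaction was -0.24, and -0.09 under total count scaling, where the median of all genes is 0.13. Derl3, a derlin of the ERAD channel, was nearly silent outside the WT tunicamycin group: 0.718, 0.128 and 0.875 CPM in WT vehicle, 13.2, 3.73 and 15 in WT tunicamycin, 0.355, 1.17 and 0.475 in LKO vehicle and 0.799, 0.130, 1.43 and 1.95 in LKO tunicamycin. These rest on 1 to 97 reads per sample. The interaction was -3.51 ± 1.03 (unadjusted p = 0.00345, 95% interval -5.69 to -1.34), and it stayed under 0.05 in all 13 fits that left out a sample.

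Xbp1, the transcription factor of this branch, was read at 38.2, 47.7 and 40.2 CPM in WT vehicle, 85.0, 67.3 and 61.3 in WT tunicamycin, 52.4, 47.3 and 34.6 in LKO vehicle and 47.4, 50.5, 47.5 and 50.1 in LKO tunicamycin. WT tunicamycin samples were above all others, and the interaction was -0.63 ± 0.21 (unadjusted p = 0.00906). Gene counts do not separate the spliced from the unspliced form. Sel1l, the scaffold of the ERAD ligase, had an interaction of -0.67 ± 0.22. Syvn1, the ligase HRD1, had -1.16 ± 0.48, under 0.05 in only 6 of 13 fits that left out a sample and -0.86 without WT tunicamycin 1. Dnajb9 and Herpud1 also had negative interactions, with larger SEs than Xbp1 and Sel1l, and did not pass the unadjusted threshold. Dnajb9 was read at 83.7, 26.8 and 61.9 CPM in WT tunicamycin and at 47.8, 36.0 and 34.3 in WT vehicle, overlapping groups, and its interaction was -0.69 ± 0.41. Herpud1 had an interaction of -0.58 ± 0.44. In both genes WT tunicamycin 2 was below every WT vehicle sample. Without it their interactions were -1.02 and -0.94 and under 0.05 at unadjusted p, the only 1 of 13 such fits.

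In the PERK branch, Ddit3, Trib3 and Nupr1 were high in WT tunicamycin 1 and 3 and in no other sample. Of 37 ATF4 and CHOP targets listed, 27 were tested, 21 had a negative interaction and 3 (11.1%) were under 0.05 at unadjusted p. At unadjusted p, 16 were higher in WT and 5 in LKO, with list medians of 0.45 and 0.19, and the median interaction was -0.26. The number under 0.05 depended on single samples, from 1 without WT vehicle 2, LKO tunicamycin 1 or LKO tunicamycin 2 to 9 without WT tunicamycin 2. Ddit3, which encodes CHOP, was read at 1.20, 0.641 and 1.89 CPM in WT vehicle, 26.3, 1.30 and 20.4 in WT tunicamycin, 0.474, 0.438 and 0.831 in LKO vehicle and 0.400, 0.390, 2.04 and 0.869 in LKO tunicamycin. WT tunicamycin 2 lay within the vehicle range, and the other WT tunicamycin samples were above every LKO sample. Ddit3 rose by 3.71 ± 0.72 in WT (adjusted p = 0.0399 by edgeR), with an interaction of -3.04 ± 1.35 (unadjusted p = 0.0389) that was under 0.05 in 4 of 13 fits that left out a sample.

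Trib3, a pseudokinase induced by CHOP, had the same profile, with 9.22, 0.648 and 8.64 CPM in WT tunicamycin and 0.326 to 1.20 CPM in LKO tunicamycin, and an interaction of -2.15 ± 1.20. Nupr1, a stress-induced chromatin protein, rose in WT by 4.70 ± 0.85 (adjusted p = 0.0381 by edgeR), and its interaction of -3.28 ± 1.69 did not pass the unadjusted threshold. Atf3, a stress-induced repressor, was too low to be tested: 70 reads in WT tunicamycin 1, 8 in WT tunicamycin 3 and at most 2 in each other sample. Atf4 itself, whose protein is controlled mainly by translation, was read at 14.5, 14.2 and 13.7 CPM in WT vehicle, 20.9, 12.5 and 25.9 in WT tunicamycin and 12.2 to 18.3 in LKO tunicamycin, with an interaction of -0.47 ± 0.30. The tRNA synthetases of the list moved within narrower limits. Aars, the alanine enzyme, was read at 39.2, 45.9 and 43.3 CPM in WT vehicle, 69.5, 63.9 and 50.2 in WT tunicamycin, 41.1, 49.6 and 40.8 in LKO vehicle and 46.8, 45.3, 37.9 and 40.7 in LKO tunicamycin, an interaction of -0.56 ± 0.19 (unadjusted p = 0.00906). Iars, the isoleucine enzyme, had -0.37 ± 0.17. Chac1, which degrades glutathione, was shared, with changes of 1.34 ± 0.43 in WT and 1.20 ± 0.46 in LKO. Asns, asparagine synthetase, varied within groups from 0.219 to 5.71 CPM, and its interaction of 0.16 ± 1.29 has no readable sign. The amino acid response letters TGATGNAA were found in 9 of 22 genes of the list with a window (40.9%). They were found in 204 of 7415 tested genes with a window (2.75%), and in 3.97% of all windows.

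The sensors and the glycosylation machinery had medians near that of all genes. Among 11 sensors and regulators, the median interaction was -0.05 and 1 was under 0.05 at unadjusted p, Atf6, with -0.45 ± 0.20, which was -0.27 and over 0.05 without WT tunicamycin 1. Ern1, which encodes IRE1, had an interaction of -0.03 ± 0.27, and Eif2ak3, which encodes PERK, of -0.05 ± 0.28. Of 27 N-glycosylation genes, 23 had a negative interaction with a median of -0.14, a sign that turned under 3 alternatives. Ddost, a subunit of the oligosaccharyltransferase, rose in WT by 0.80 ± 0.15 (adjusted p = 0.0388 by edgeR), was higher in LKO by 0.32 ± 0.13, and had an interaction of -0.48 ± 0.20. Mcfd2, an ER export cofactor, had -0.47 ± 0.16. Of 21 translocon and signal peptidase genes and 6 substrates of IRE1-dependent decay, 0 and 1 were under 0.05, with medians of -0.09 and -0.36.

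**Figure D3:**
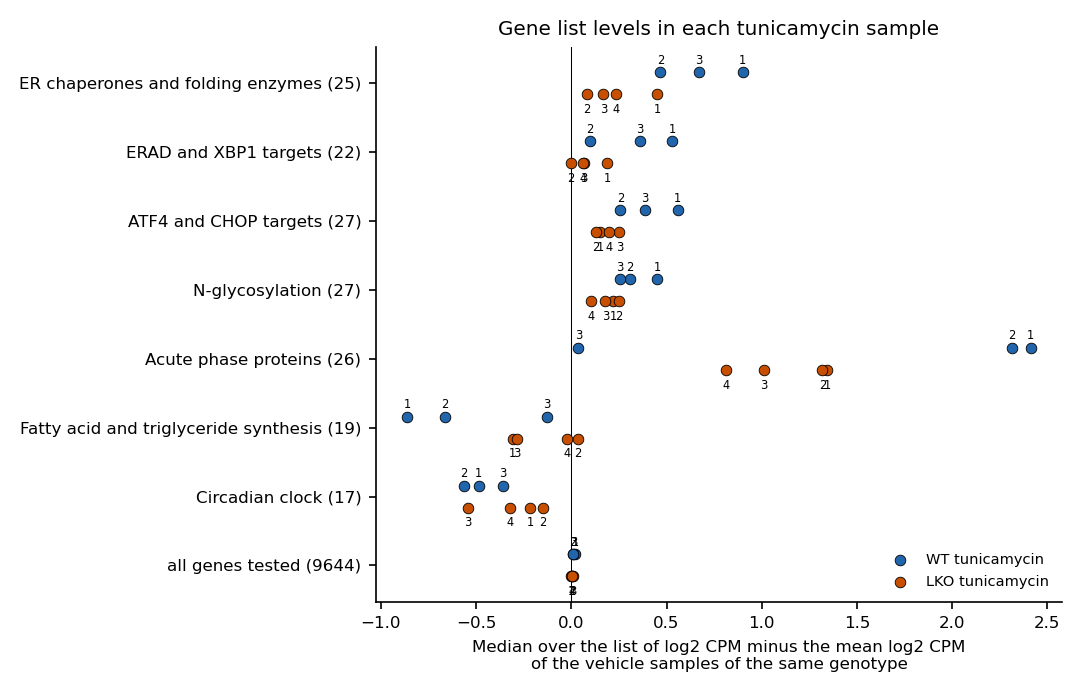
Median log2 shift from the mean of the own vehicle group (x axis), for gene lists and all genes tested (named on the y axis). Each point is 1 tunicamycin sample of WT or LKO. WT tunicamycin 3 is at 0.67 for ER chaperones but at 0.04 for acute phase proteins, where the other WT samples are at 2.41 and 2.31.

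Acute phase transcripts were high after tunicamycin in both genotypes, and the size of their genotype difference depended on the samples that stood apart. Of 27 listed, 26 were tested and all 26 had a negative interaction, 5 of them (19.2%) under 0.05 at unadjusted p (Lcn2, Saa1, Saa2, Orm2 and Steap4). The list's median change was 2.01 in WT and 1.03 in LKO, and 12 genes were shared, among them the fibrinogen genes Fga, Fgb and Fgg. The median interaction of -0.82 became -1.30 with 19 genes under 0.05 without WT tunicamycin 3, -0.41 with 0 genes without LKO vehicle 2, and -0.78 with 16 genes without both. Lcn2, an iron-binding protein of the acute phase, was read at 4.07, 3.33 and 8.45 CPM in WT vehicle, 365, 378 and 5.56 in WT tunicamycin, 21.8, 285 and 32.6 in LKO vehicle and 413, 483, 298 and 307 in LKO tunicamycin. WT tunicamycin 3 lay at the vehicle level and LKO vehicle 2 near the tunicamycin level, and the LKO tunicamycin samples lay on both sides of WT tunicamycin 1 and 2. The interaction was -3.85 ± 1.37 (unadjusted p = 0.0124), and -1.80 without LKO vehicle 2, where it was over 0.05.

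The neutrophil markers S100a8 and S100a9 were also above vehicle in every tunicamycin sample but WT tunicamycin 3, and their part in the acute phase changes was not tested. S100a8 and S100a9, calcium-binding proteins of neutrophils, were shared, but rest on 1 to 35 and 0 to 19 reads per sample. In LKO vehicle 2, the deepest library, S100a8 had 21 reads and S100a9 had 4. The neutrophil marker Retnlg had at most 7 reads and was not tested. The lymphocyte markers Cd3e and Cd79a had at most 2 reads in any sample and were not tested. Only 3 neutrophil and lymphocyte markers could be tested, S100a8, S100a9 and Ptprc, with a median change of 2.09 in WT and 1.57 in LKO. Ptprc alone had 24 to 40 reads in WT vehicle and 23 to 41 in WT tunicamycin. Their median shift was 2.52, 1.84 and -0.19 in WT tunicamycin 1 to 3 and 1.03, 1.86, 1.32 and 1.32 in LKO tunicamycin 1 to 4, so WT tunicamycin 3 was again at the vehicle level. Over 11 markers the summed level was 3.46 to 5.87 CPM in WT vehicle, 4.17 to 13.6 in WT tunicamycin, 6.23 to 7.52 in LKO vehicle and 9.46 to 12.5 in LKO tunicamycin. The number of markers at 0 was 3 in WT vehicle and WT tunicamycin, 1 in LKO vehicle and 0 in LKO tunicamycin.

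Saa2, serum amyloid A, had values like those of Lcn2: 11.9, 17.9 and 63.8 CPM in WT vehicle, 1970 and 2060 in WT tunicamycin 1 and 2 but 66.4 in WT tunicamycin 3, 60.7, 1754 and 275 in LKO vehicle and 2585, 3241, 1361 and 1767 in LKO tunicamycin. Saa1 and Saa2 are near-identical copies, and reads may be split between them. Steap4, a metalloreductase of the list, differed in that the LKO tunicamycin samples were below WT tunicamycin 1 and 2: 408, 234 and 71.9 CPM in WT tunicamycin, and 100, 159, 108 and 113 in LKO tunicamycin, from 49.6 to 66.5 in WT vehicle and 61.2 to 87.5 in LKO vehicle. Its interaction was -1.25 ± 0.53 (unadjusted p = 0.0299), and -0.61 and over 0.05 without WT tunicamycin 1. It was also over 0.05 without WT vehicle 1, LKO vehicle 2 or LKO tunicamycin 1. Hpx, which binds haem in plasma, was shared, with 443, 504 and 626 CPM in WT vehicle, 2787, 2901 and 696 in WT tunicamycin, 796, 1774 and 794 in LKO vehicle and 2254, 2657, 2361 and 2071 in LKO tunicamycin, and an interaction of -0.96 ± 0.54.

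Of 21 genes of fatty acid and triglyceride synthesis listed, 19 were tested and all 19 had a positive interaction, with a median of 0.36, and 2 (10.5%) were under 0.05 at unadjusted p, against 2.13% of all genes. At unadjusted p, 11 were lower in WT and 2 in LKO, with list medians of -0.53 and -0.12, counts that do not test the difference. Without WT tunicamycin 3 the median was 0.69 with 11 genes under 0.05, without that sample and LKO vehicle 2 it was 0.59 with 10, and without WT tunicamycin 1 it was 0.18 with 2. Gpam, which starts triglyceride synthesis, was read at 49.7, 55.4 and 52.2 CPM in WT vehicle, 30.7, 39.2 and 45.7 in WT tunicamycin, 58.4, 53.1 and 47.8 in LKO vehicle and 50.8, 59.7, 57.5 and 58.4 in LKO tunicamycin. The WT groups did not overlap, the LKO groups did, and the interaction was 0.54 ± 0.19 (unadjusted p = 0.0111). Acly, which makes cytosolic acetyl-CoA, had 0.50 ± 0.20, and Fasn, fatty acid synthase, 0.63 ± 0.37.

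Scd1, the desaturase of stearate, was read at 1331, 1182 and 2389 CPM in WT vehicle, 70.5, 111 and 2046 in WT tunicamycin, 1775, 766 and 1913 in LKO vehicle and 960, 2950, 1158 and 1274 in LKO tunicamycin. WT tunicamycin 1 and 2 were the lowest of all 13 samples and WT tunicamycin 3 lay within the vehicle range. The interaction was 1.23 ± 1.15 over all samples and was called without WT tunicamycin 3 (4.27, adjusted p = 0.0364 by edgeR) and without that sample and LKO vehicle 2 (3.96, adjusted p = 0.0420). The only other gene called under any alternative was Car3, a carbonic anhydrase of lipid-rich tissue, read at 499, 640 and 657 CPM in WT vehicle, 41.1, 43.6 and 472 in WT tunicamycin, 319, 292 and 344 in LKO vehicle and 80.6, 56.3, 112 and 113 in LKO tunicamycin. With all samples it was shared, with an interaction of -0.12 ± 0.84, and without WT tunicamycin 3 the interaction was 2.01 (adjusted p = 0.0364). Unlike Scd1, Car3 was below every vehicle sample in all 4 LKO tunicamycin samples.

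**Figure D4:**
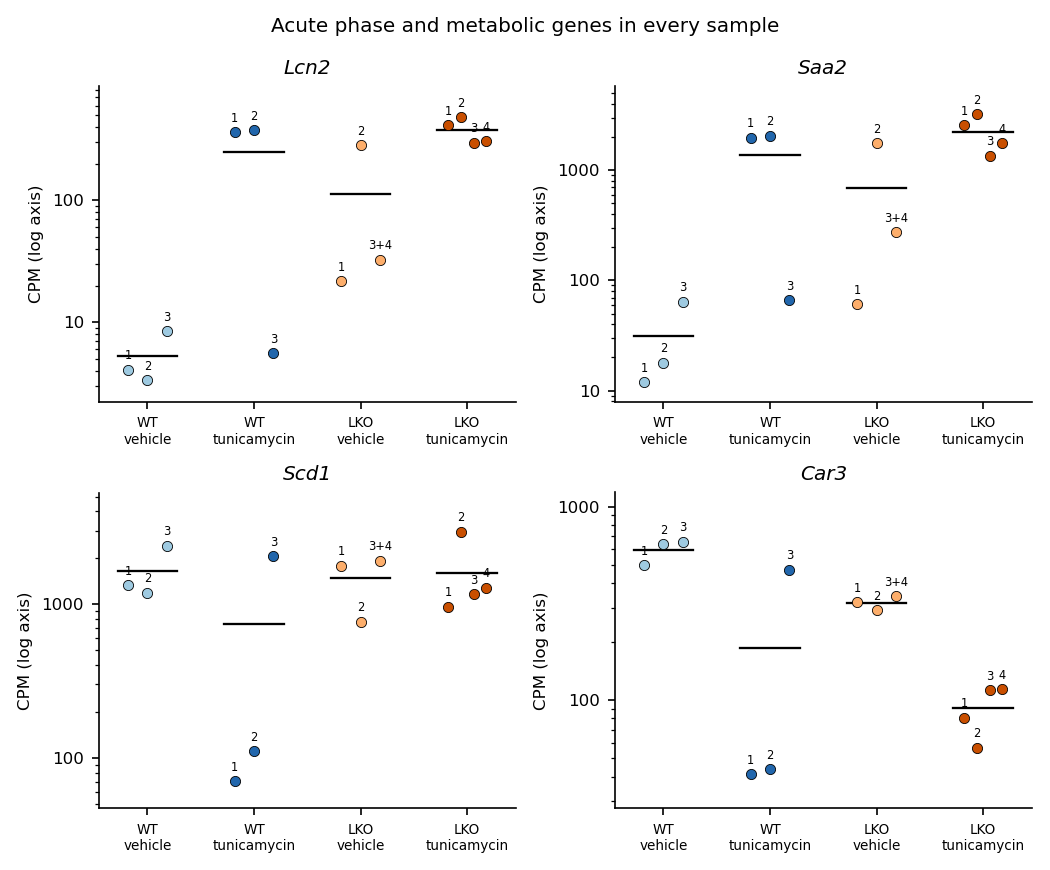
Level of Lcn2, Saa2, Scd1 and Car3 (CPM, log axis) in the 4 groups, with points numbered by replicate and a line at each group mean. WT tunicamycin 3 lies with the vehicle samples in all 4 genes, at 5.56 CPM for Lcn2 and 2046 CPM for Scd1.

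The other metabolic lists showed smaller median differences when all samples were used. Cholesterol synthesis genes (24 tested) had a median interaction of 0.13 and 1 under 0.05, Insig1, a sterol-regulated brake on the pathway, with 0.73 ± 0.28. Fatty acid oxidation genes (24 tested) had a median of -0.04 and 0 under 0.05. Over 29 alternatives the cholesterol median ran from -0.10, without LKO vehicle 3 and 4, to 0.42, without WT tunicamycin 3 and LKO vehicle 2. The fatty acid oxidation median ran from -0.11, without WT tunicamycin 1, to 0.13, without WT tunicamycin 3. Their signs turned under 4 and 10 alternatives. Of 27 cytochrome P450 and bile acid genes tested, 3 were lower in WT and 12 in LKO at unadjusted p, yet the median interaction was -0.21 and 1 was under 0.05, so the counts differ more than the interaction does. Over the alternatives this median ran from -0.33, without WT tunicamycin 1, to -0.06, with unfiltered FPKM. Among 16 hepatocyte transcription factors, 4 (25%) were under 0.05 with a negative sign, against 2.79% of all genes, with a list median of -0.07. Over the alternatives this number ran from 1 to 6, and the sign of the median turned under 3. The 4 genes included Foxa3, sorted as lost (-0.54 ± 0.20), and Nr0b2 and Tbx3, sorted as gained (-1.14 ± 0.44 and -1.07 ± 0.44). Of 13 fits that left out a sample, Foxa3 was under 0.05 in 12, Nr0b2 in 11 and Tbx3 in 7. Nr0b2, the bile acid-induced repressor SHP, was low throughout, at 2.19 to 4.48 CPM in WT vehicle, 2.78 to 5.09 in WT tunicamycin, 2.12 to 2.61 in LKO vehicle and 0.869 to 2 in LKO tunicamycin.

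Of 17 clock genes tested, 10 were lower in WT, and 7 were lower and 2 higher in LKO at unadjusted p. The shared genes were 6: Per2, Cry1, Hlf, Tef, Ciart and Bhlhe40. Per2, a repressor of the clock, was read at 13.7, 13.2 and 12.1 CPM in WT vehicle, 11, 8.59 and 9.11 in WT tunicamycin, 11.7, 9.93 and 10.2 in LKO vehicle and 7.99, 7.03, 4.08 and 6.41 in LKO tunicamycin. Neither pair of groups overlapped, and the interaction was -0.31 ± 0.25. Nr1d1, which encodes the repressor REV-ERBα, was opposite: 17.4, 11.9 and 13.3 CPM in WT vehicle, 9.91, 9.40 and 10.5 in WT tunicamycin, 12.3, 15.9 and 7.95 in LKO vehicle and 19.5, 12.1, 17.5 and 16.7 in LKO tunicamycin. Its interaction was 0.97 ± 0.31 (unadjusted p = 0.00648), while the LKO groups overlapped. The list's median interaction was 0.01, and 3 genes (17.6%) had a positive interaction under 0.05 at unadjusted p, against 2.13% of all genes. These were Nr1d1 and the lost genes Bhlhe41 and Per1. Of 13 fits that left out a sample, Nr1d1 and Bhlhe41 were under 0.05 in all 13 and Per1 in 6.

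Shared responses were named by rule from genes whose treatment groups did not overlap in either genotype, taking those with the largest change in the genotype where it was smaller. On the higher side they were Cldn1, BC048546, Serpina10, Fndc3b, St6gal1, Nav2, Tmem176b and Hpx. Cldn1, a tight junction claudin, changed by 1.04 ± 0.35 in WT and 1.26 ± 0.29 in LKO, an interaction of 0.22 ± 0.46. St6gal1, a sialyltransferase of secreted glycoproteins, was read at 19, 19.3 and 19.4 CPM in WT vehicle, 42.4, 38.6 and 22.8 in WT tunicamycin, 21.6, 33.8 and 17.8 in LKO vehicle and 38.2, 49.8, 41.2 and 35.1 in LKO tunicamycin. WT tunicamycin 3 was the sample of its group nearest to vehicle, and the interaction was -0.10 ± 0.31 (95% interval -0.76 to 0.56).

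On the lower side the shared genes were Car3, Ces1d, Cyp4a12b, Ces1e, Etnppl, Usp2, Ugt2a3 and Zbtb16, several of them enzymes of lipid and drug metabolism. Ugt2a3, a glucuronosyltransferase, was read at 80.5, 92.3 and 76.8 CPM in WT vehicle, 35.1, 34.4 and 74.6 in WT tunicamycin, 64.6, 56.4 and 74.5 in LKO vehicle and 32.2, 32.1, 37.4 and 48.9 in LKO tunicamycin. Its change was -0.79 ± 0.24 in WT and -0.79 ± 0.22 in LKO, and the 95% interval of the interaction, -0.70 to 0.71, still allows a difference. WT tunicamycin 3 lay just below the vehicle samples, so the equal means depend on it. No fit without that sample is given for this gene. Ces1d and Ces1e, carboxylesterases of a family with close copies between which reads may be split, changed by -1.46 ± 0.46 and -1.26 ± 0.37 in WT and -1.60 ± 0.43 and -1.13 ± 0.35 in LKO. WT tunicamycin 3 again stood apart, with 430 reads of Ces1d against 122 and 92 in WT tunicamycin 1 and 2. For Ces1e it had 130 reads against 37 and 29. Dusp1, the phosphatase of stress-activated kinases, was called in both genotypes, by -1.89 ± 0.30 in WT (adjusted p = 0.0170 by edgeR) and -1.74 ± 0.25 in LKO (adjusted p = 0.0268), and was chosen for naming after its values were seen. Its levels were 7.78, 8.84 and 9.91 CPM in WT vehicle, 1.65, 1.78 and 3.70 in WT tunicamycin, 7.35, 6.13 and 11.7 in LKO vehicle and 2.27, 2.47, 2.34 and 3.04 in LKO tunicamycin. Neither treatment pair overlapped in it.

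The genes with the smallest unadjusted p of the interaction at a mean log2 CPM of at least 3 were named by rule, 10 of each sign. The negative ones were Inhbe, Pdia4, Dnajb11, Hsp90b1, Lrrc8a, Morf4l2, Msra, Hyou1, Dnaja3 and Tsku, so that 4 of 10 were on the ER chaperone list. That list holds 25 of the 9644 genes tested and was put together with earlier results known, so the count tests nothing. The positive ones were Dazap1, Nfat5, Pdlim5, Cox20, Mpdz, 2810474O19Rik, Fchsd2, Fam63b, Sema4g and Mug-ps1. None had an adjusted p under 0.935. All 20 stayed under an unadjusted p of 0.05 in all 13 fits that left out a sample. They were chosen by that p in all samples, most of which each fit reuses, so this is no independent check. Morf4l2, a subunit of histone acetyltransferase complexes, was read at 11.7, 13.6 and 13.8 CPM in WT vehicle, 27.9, 20.9 and 24.1 in WT tunicamycin, 15.5, 12.1 and 13.8 in LKO vehicle and 16.9, 17.0, 14.5 and 15.7 in LKO tunicamycin. It rose in WT by 0.90 ± 0.14 (adjusted p = 0.0168 by edgeR), and its interaction was -0.68 ± 0.19.

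Most positive interactions were falls in WT that were not seen in LKO. Dazap1, an RNA-binding protein, was read at 11.7, 10.3 and 9.04 CPM in WT vehicle, 6.74, 6 and 7.10 in WT tunicamycin, 8.53, 8.40 and 8.54 in LKO vehicle and 9.99, 9.50, 9.58 and 8.58 in LKO tunicamycin. The WT groups did not overlap, every LKO sample was above every WT tunicamycin sample, and the interaction was 0.79 ± 0.19 (unadjusted p = 0.000594). Nfat5, the transcription factor of osmotic stress, had a change of -0.49 ± 0.12 in WT and 0.11 ± 0.11 in LKO, an interaction of 0.61 ± 0.16. Fchsd2, an endocytic adaptor, fell by 0.88 ± 0.17 on the log2 scale in WT (adjusted p = 0.0399 by edgeR) and had an interaction of 0.79 ± 0.23. In these genes WT tunicamycin 3 lay with the other WT tunicamycin samples, at 7.10 CPM for Dazap1, 18.4 for Nfat5 and 9.11 for Fchsd2.

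Fewer genes were sorted as gained or opposite than as lost, counts that do not test a difference. Inhbe, which encodes the activin E subunit secreted by the liver, was opposite: 9.70, 7.82 and 6.27 CPM in WT vehicle, 16.9, 11.5 and 12.7 in WT tunicamycin, 8.06, 11.3 and 7.48 in LKO vehicle and 5.20, 6.64, 5.09 and 8.36 in LKO tunicamycin. The tunicamycin groups did not overlap, and the interaction was -1.29 ± 0.31 (unadjusted p = 0.000656). Tsku, a secreted leucine-rich protein, was read at 34.2, 27.0 and 29.9 CPM in WT vehicle, 45.0, 20.4 and 38.7 in WT tunicamycin, 28, 30.7 and 33.3 in LKO vehicle and 8.53, 14.7, 10.5 and 25 in LKO tunicamycin. All LKO tunicamycin samples lay below all LKO vehicle samples, while WT tunicamycin lay on both sides of its vehicle, and the interaction was -1.25 ± 0.41. Msra, which repairs oxidised methionine, was read at 17.8 to 19.9 CPM in WT vehicle, 19 to 21.6 in WT tunicamycin, 17.9 to 21.3 in LKO vehicle and 12.9 to 16 in LKO tunicamycin, an interaction of -0.55 ± 0.16. Ocln, the junction protein occludin, was opposite the other way, with an interaction of 1.22 ± 0.30 (unadjusted p = 0.000870), as was Cox20, an assembly factor of cytochrome oxidase, with 0.63 ± 0.18.

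The genes called in LKO, besides Dusp1, were Fabp5 and Gabbr2, both chosen for naming after their values were seen. Fabp5, a fatty acid-binding protein, was read at 4.79, 6.41 and 5.25 CPM in WT vehicle, 5.92, 5.84 and 6.33 in WT tunicamycin, 5.69, 4.45 and 4.33 in LKO vehicle and 12.5, 13.4, 8.46 and 8.25 in LKO tunicamycin. LKO tunicamycin samples were above all others. Fabp5 rose by 1.15 ± 0.19 in LKO (adjusted p = 0.0346 by edgeR), with 0.14 ± 0.23 in WT and an interaction of 1.02 ± 0.29 (unadjusted p = 0.00298). Gabbr2, a GABA receptor subunit, was read at 6.47 to 7.82 CPM in WT vehicle, 7.56 to 9.73 in WT tunicamycin, 6.40 to 8.40 in LKO vehicle and 13.5 to 15.3 in LKO tunicamycin, an interaction of 0.55 ± 0.20. Mug-ps1, a pseudogene of the murinoglobulin family whose reads may come from close copies, had an interaction of 1.53 ± 0.47.

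**Figure D5:**
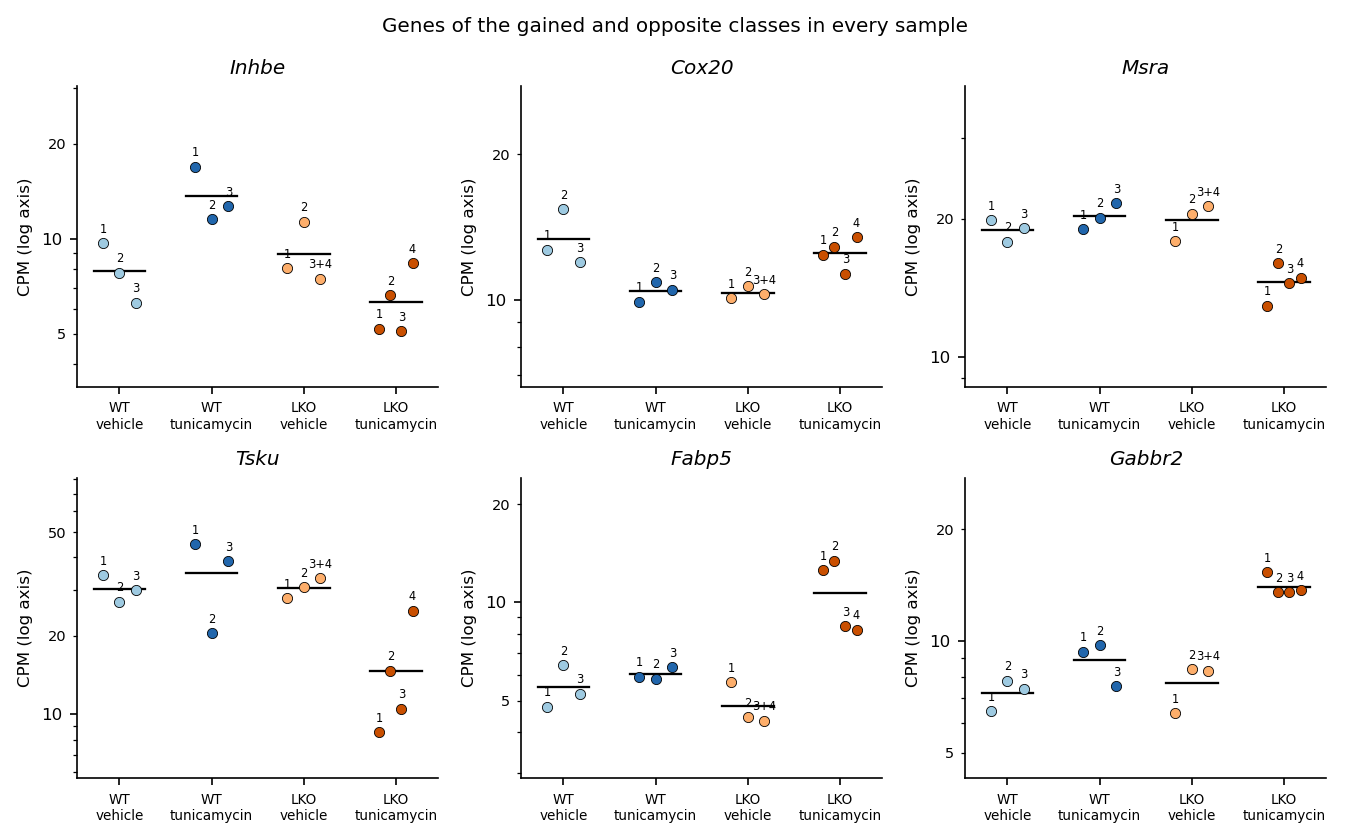
Level of Inhbe, Cox20, Msra, Tsku, Fabp5 and Gabbr2 (CPM, log axis) in the 4 groups, with points numbered by replicate and a line at each group mean. For Fabp5 the LKO tunicamycin samples run from 8.25 to 13.4 CPM and all other samples from 4.33 to 6.41 CPM.

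Markers of other cell types were set beside these results, and their part in them was not tested. In bulk liver, fewer cells of a type and less RNA per cell cannot be told apart. All 12 Kupffer cell and macrophage markers were tested, 11 had a positive interaction (median 0.31) and 1 was under 0.05 at unadjusted p, Lyz2, with 0.91 ± 0.34. At unadjusted p, 0 were higher in WT and 7 in LKO. Their summed level was 72.0 to 83.5 CPM in WT vehicle, 76.3 to 101 in WT tunicamycin, 55.1 to 92.1 in LKO vehicle and 82.3 to 160 in LKO tunicamycin, and 0 of them were at 0. Marco, a scavenger receptor, was read at 2.53, 20.7, 6.73 and 12.1 CPM in LKO tunicamycin and 1.54 to 3.73 CPM in WT tunicamycin, with LKO tunicamycin 2 and 4 the highest. Of 11 endothelial markers, 0 were under 0.05 (median 0.01), and of 10 stellate cell and fibroblast markers 1, Col1a1, with -1.56 ± 0.71 (list median -0.27). Col1a1 was at -0.51 without WT tunicamycin 2 and under 0.05 in 5 of 13 fits that left out a sample. Hepatocyte markers had a median interaction of -0.10 and 0 of 11 under 0.05. Only 3 markers each of bile duct cells and of neutrophils and lymphocytes could be tested, with median interactions of -0.75 and -0.04 and 0 under 0.05.

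Lists of cell-wide systems had median interactions close to that of all genes. The median interaction was 0.02 for 19 genes of H3K4 methyltransferase complexes (0 under 0.05), -0.06 for 32 proteasome genes (1), -0.01 for 28 autophagy genes (1), -0.03 for 18 cytosolic heat shock genes (2), -0.02 for 32 ribosomal protein genes (0) and -0.11 for 13 immediate early genes (0). Of the 18 heat shock genes, 5 were lower and 1 higher in WT, and 6 lower and 0 higher in LKO, at unadjusted p.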

How the data were processed

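Liver RNA, labelled polyadenylated, was sequenced in 14 libraries. Reads were trimmed with Trimmomatic, aligned with STAR and measured with Cufflinks on mm10, per the submitters' processing notes, and tool versions are not given in the sources used here. The deposited counts are whole reads per gene with and without regard to strand, per the file headers, and the authors' FPKM table served alternatives only. The sense column was used, since it held 99.5 to 99.6% of stranded reads, and 0 per-sample columns were left unused. The files name genes by symbol.

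LKO vehicle libraries 3 and 4 differed by less than the other pairs (chi-square per degree of freedom 1.12, against 3.38 to 25.9) and were summed and counted as 1 sample. Counts were fitted in edgeR 4.0.16 (R 4.3.3) with TMM scaling, filterByExpr by group, 1 mean per group and the quasi-likelihood test, with 9 residual degrees of freedom. Of 24411 genes, 9644 were tested, and calls needed p under 0.05 after Benjamini-Hochberg adjustment across them. SE values come from the fold change and its F statistic. Reads are not independent molecules, so precision was taken from the spread between samples.

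Named genes were Rbbp5, the 10 of each sign with the smallest interaction p at a mean log2 CPM of at least 3, the 8 shared genes per direction with the largest smaller effect, and up to 3 interaction genes per list, besides ER stress markers and genes said to be named after their values were seen. The genes and lists were chosen with earlier results of these data known. Promoters came from RefSeq windows of GRCm38.p6. Alternatives, with limma 3.58.1 and DESeq2 1.42.0, changed the scaling, test, filter, strand, unit, block and samples. The scripts were tested on simulated data.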

Additional observations from a re-analysis of the deposited data

Results flagged for a closer look

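Within the LKO tunicamycin group, 8 of 87 genes examined had 1 sample far from the other 3, where chance alone marks about 1 in 20 groups. LKO tunicamycin 1 was high for Calr (327.6 CPM, others 233.1 to 248.4), Manf (37.3 CPM, others 22.9 to 24.8) and Gabbr2 (15.3 CPM, others 13.5 to 13.7). Calr and Manf are ER chaperone genes, and the same sample had the highest list shift of its group, 0.45. LKO tunicamycin 2 was high for Scd1 (2950 CPM, others 960.2 to 1274) and low for Herpud1 (53.9 CPM, others 65.3 to 67.6). LKO tunicamycin 4 was high for Dnaja2 (32.6 CPM, others 26.6 to 27.3) and Pdlim5 (22.7 CPM, others 20.5 to 20.6), and LKO tunicamycin 3 for Iars (15.6 CPM, others 14.3).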

How the results depend on the processing

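Of 104 named gene effects, recomputed under 29 alternatives (2982 values), 2814 values kept their direction and side of the adjusted threshold, 112 became called, 25 lost the call and 31, of 4 effects, changed sign. The Asns interaction (0.16) was -0.12 with DESeq2, -0.00989 with library 3 alone, -0.12 with unfiltered FPKM and -0.66 without WT tunicamycin 3 and LKO vehicle 2, an alternative chosen after seeing the data, and ran from -1.12 to 2.42 with 1 sample left out. The Car3 interaction (-0.12) was 0.0136 with total counts, 1.26 with voom, 0.27 and 0.38 with the replicate block (13 samples, 14 libraries), 0.87, 0.90 and 0.87 with FPKM (pseudocount 1, 0.1, and 1 unfiltered) and 1.95 without both samples, and ran from -0.60 to 2.01. The Dusp1 interaction (0.15) ran from -0.0769 to 0.61. The Rbbp5 interaction (-0.04) was 0.10 with total counts, 0.00411 with voom, 0.11 with the block and 0.0465 with unfiltered FPKM, and ran from -0.27 to 0.24.

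Interaction calls (0) numbered 0 to 2 with 1 sample left out and 1 without both samples. Interaction genes at unadjusted p (474) were 288 with DESeq2, 729 unfiltered, 310 at 5 CPM or more, 217, 224 and 792 with FPKM, and 413 to 744 with 1 sample left out. The gained responses (89) were 41 with DESeq2, 54 at 5 CPM or more, 37, 34 and 191 with FPKM, and 72 to 122 with 1 left out. The lost responses (272) were 178 with DESeq2, 144, 153 and 412 with FPKM, and 226 to 458 with 1 left out. The shared responses (416) were 752 without both samples and 237 to 677 with 1 left out. WT tunicamycin calls (35) were 148 with total counts, 154 with DESeq2, 210 with voom, 289 unfiltered, 56 with 14 libraries, 53 unstranded, 2, 6 and 0 with FPKM, 650 without both samples and 0 to 615 with 1 left out. LKO tunicamycin calls (3) were 47 with DESeq2, 153 unfiltered, 5 with 14 libraries, 1 with library 3 alone, 0, 0 and 1 with FPKM, 269 without both samples and 0 to 67 with 1 left out. The cause was not tested.

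Of 19 pairs of same-numbered samples, 3 correlated above 0.1 in their deviations from the group means (-0.12 to 0.14). The mean correlation was 0.03 for same-numbered pairs and -0.01 for other pairs. Such correlations cannot tell whether the numbers pair the samples. With the replicate block, WT calls were 38 and LKO calls 5, interaction calls 0 and interaction genes at unadjusted p 459. With the block and 14 libraries, WT calls were 69 and LKO calls 72. Few reads outside Rn45s limit genes such as Ddit3, Derl3 and Atf3.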
